A study of Mus musculus with 12 samples.

Results

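Semaphorins, plexins, ephrins, Eph receptors, Slits, Robos, netrins and Unc5 receptors were followed in 2 cell types sorted from mouse bone. The list held 41 genes of these families, compiled with earlier results of these data known, and further genes of the same families are counted separately at the end. Of these, 40 had a probe set that the platform annotation assigns to them alone, out of 19937 genes with such a probe set in the whole table, and Ephb2 is not analysed here. Where a gene had more than one such probe set, the brightest on average over the 12 arrays stood for it.

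The samples were osteoblasts of tumor-bearing mice, osteoblasts of tumor-free mice, endothelial cells of tumor-bearing mice and endothelial cells of tumor-free mice, with 3 arrays per group that the labels call biological replicates. All mice were female C57BL/6, and all cells came from long bones. Tumor-bearing mice had received 500000 EO771 cells, a mouse mammary cancer line, into the heart, and the cells grew in bone for about 2 weeks. The labels give no age, do not say plainly how many mice an array stands for, and do not say whether the tumor-free mice were injected. Osteoblasts were sorted as CD51+ cells negative for GFP, TR119, CD45, Sca1 and CD31, and endothelial cells as Sca1+ CD31+ cells negative for GFP, TR119 and CD45. RNA of 5000 cells was amplified for each array.

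Guidance molecules were named for steering growing axons. Slits are secreted and bind Robo receptors such as Robo1 and Robo2, and netrins bind Unc5 receptors, Dcc and neogenin. Most semaphorins act through plexins (the secreted ones usually with a neuropilin). Ephrins on a cell bind Eph receptors on its neighbour. In bone and vessels the same molecules direct sprouting endothelial cells and the traffic between osteoblasts, osteoclasts and vessels.

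Osteoblast lineage and endothelial markers followed the labelled cell types. The median of 7 measured osteoblast lineage markers, such as Sp7, Alpl and Col1a1, lay between 10.84 and 11.27 in the tumor-bearing and between 10.80 and 11.30 in the tumor-free osteoblast arrays, and between 6.11 and 6.47 in the tumor-bearing and 5.54 and 6.03 in the tumor-free endothelial arrays. The median of 8 endothelial markers, such as Cdh5, Kdr and Emcn, lay between 5.55 and 5.90 in osteoblasts and between 10.17 and 10.55 in endothelial cells. Chondrocyte markers had medians from 7.71 to 9.70 in the osteoblast arrays and from 6.16 to 6.55 in the endothelial arrays. Stromal niche markers had 9.39 to 9.96 and 7.32 to 9.27 in the same order, and neutrophil markers 6.25 to 10.61 and 6.49 to 9.03. Macrophage markers had 5.55 to 7.85 and 5.20 to 6.15, and osteoclast markers 6.47 to 7.98 and 5.27 to 6.04. The part of such cells in the differences between the cell types was not tested. All values are log2 intensities as deposited, and since each comes from sorted cells in bulk, fewer cells of a type and less RNA per cell cannot be told apart.

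Of the 40 genes, 34 were brighter than 40% of probe sets (the 40th percentile, a log2 value between 5.51 and 5.61) on at least 3 of the 12 arrays and were tested. The other 6, Sema3c, Sema3e, Sema4a, Epha3, Epha7 and Ephb1, did not reach this mark. A second, unused probe set of Ephb1 read 6.22 in tumor-free endothelial replicate 1 and at most 5.35 in the other arrays. Slit2 and Sema3d passed this filter through the osteoblast arrays alone and Plxnc1 through the endothelial arrays alone, so counts over the tested genes favour genes that differ. Sema3e, the secreted ligand of plexin D1, reached at most 5.33 in any array, and Epha3, an Eph receptor, exceeded 5.61 in a single array, tumor-free osteoblast replicate 2 (6.54).

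The comparison of the cell types gave the differences. In tumor-bearing mice, 14 of the 34 tested genes differed between osteoblasts and endothelial cells (limma, adjusted p under 0.05 over 14217 genes), 6 higher and 8 lower in osteoblasts. That is 41.2% of those tested, where 10.6% of all genes differed, 4.89% higher and 5.68% lower. In tumor-free mice 14 also differed, 7 higher and 7 lower, where 12.4% of all genes did, 5.38% higher and 7.00% lower. In both states 11 genes passed in the same direction. The osteoblast and endothelial arrays did not overlap in 20 genes (58.8%) in tumor-bearing mice, where 28.1% of all genes did not, and in 22 (64.7%) in tumor-free mice, where 29.4% did not. The median absolute log2 fold change of the 34 genes was 0.68 in the tumor-bearing and 0.55 in the tumor-free state, against 0.20 for all genes tested in either state. The list was compiled with earlier results of these data known and the filter favours differing genes, so these shares describe the list and no more.

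**Figure D1:**
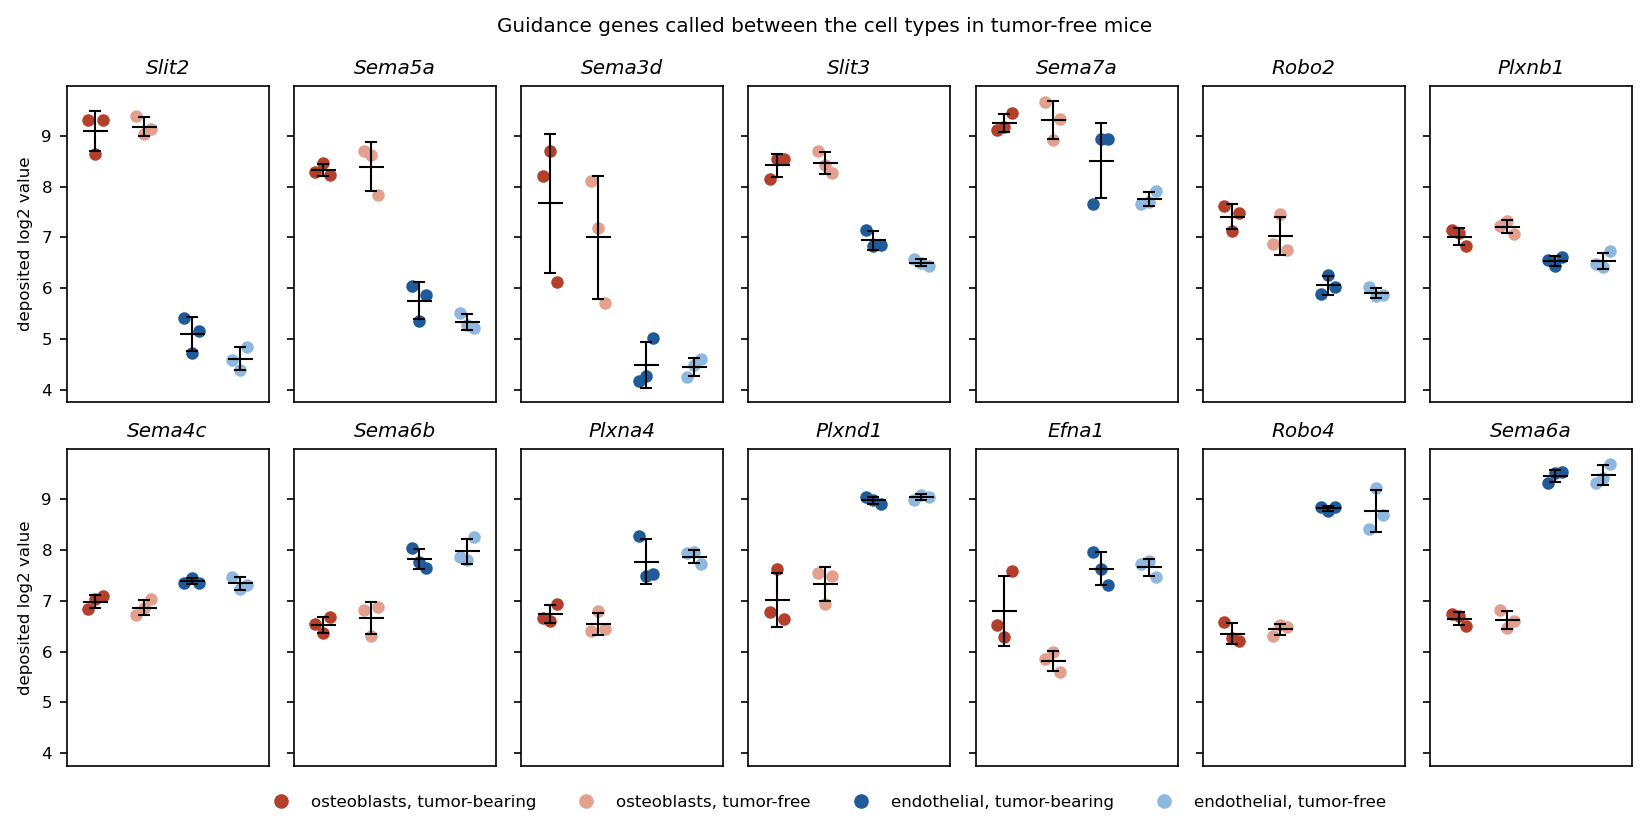
Deposited log2 value (y axis) of the 14 guidance genes that differed by cell type in mice without tumor, 1 panel per gene, in osteoblasts of tumor-bearing and tumor-free mice and endothelial cells of tumor-bearing and tumor-free mice (left to right). Points are arrays, black bars the mean and SD (n = 3); the osteoblast points of Slit2 lie between 8.64 and 9.38 and its endothelial points between 4.39 and 5.40.

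Both Slit ligands on the list were higher in osteoblasts, and a vascular Robo receptor was higher in endothelial cells. Whether these ligands bind that receptor was not measured. Slit2, a secreted ligand that repels axons and acts on vessels, had log2 values of 9.32, 8.64 and 9.31 in the tumor-bearing and 9.38, 9.03 and 9.13 in the tumor-free osteoblast arrays, against 5.40, 4.73 and 5.16 in the tumor-bearing and 4.59, 4.39 and 4.85 in the tumor-free endothelial arrays. No osteoblast array came within 3 log2 units of an endothelial one, and every endothelial value lay below its array's 40th percentile, so Slit2 was tested through its osteoblast arrays alone. The osteoblast mean exceeded the mean of the endothelial arrays' 40th percentiles by 3.56 in tumor-bearing mice and 3.6 in tumor-free mice on the log2 scale, so the difference was at least that large if this percentile is taken as the floor. The fitted log2 fold change of osteoblasts over endothelial cells, which rests on the dim values, was 3.99 ± 0.23 (SE) in tumor-bearing mice and 4.57 ± 0.23 in tumor-free mice (limma adjusted p = 1.13e-06 and 3.82e-07). Slit3, its paralog, which osteoblasts are known to secrete in mice with effects on bone vessels, had log2 values of 8.15, 8.55 and 8.55 in the tumor-bearing and 8.70, 8.43 and 8.28 in the tumor-free osteoblast arrays, against 7.15, 6.83 and 6.85 in the tumor-bearing and 6.57, 6.50 and 6.44 in the tumor-free endothelial arrays. It was higher in osteoblasts by 1.48 in tumor-bearing mice and 1.97 in tumor-free mice, and it was above the dim level in both cell types.

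Robo4, the Robo receptor of endothelium, ran the other way, with log2 values of 6.59, 6.26 and 6.20 in the tumor-bearing and 6.31, 6.52 and 6.49 in the tumor-free osteoblast arrays, against 8.86, 8.77 and 8.85 in the tumor-bearing and 8.41, 9.21 and 8.69 in the tumor-free endothelial arrays. It was lower in osteoblasts, with log2 fold changes of -2.47 in tumor-bearing mice and -2.33 in tumor-free mice, a 5.03-fold difference without tumor (limma adjusted p = 1.12e-05 and 1.58e-05). Robo2, a neuronal Slit receptor, was higher in osteoblasts, with log2 values of 7.62, 7.14 and 7.47 in the tumor-bearing and 6.87, 7.46 and 6.76 in the tumor-free osteoblast arrays, against 5.88, 6.27 and 6.02 in the tumor-bearing and 6.03, 5.84 and 5.87 in the tumor-free endothelial arrays. Its log2 fold changes were 1.35 and 1.12 in tumor-bearing and tumor-free mice. Robo1, the broadly expressed Slit receptor, had group means between 7.49 and 7.68 and did not pass in either state, with a 95% interval of the log2 fold change of -0.46 to 0.26 in tumor-bearing and -0.24 to 0.48 in tumor-free mice. Of the 5 Slit and Robo genes on the list, Robo1 alone did not pass. Slit1 and Robo3, outside the list, had group means between 5.68 and 5.85 and between 5.31 and 5.66.

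The sequences around the starts of 2 osteoblast-high ligand genes and 2 endothelial-high receptor genes are shown because these genes had opposite patterns, and Plxnd1 is described with the plexins. They are RefSeq windows of GRCm38.p6, 250 bases before to 50 after the gene start, at chr5:47982905-47983204 (plus strand) for Slit2, chr11:35121206-35121505 (plus strand) for Slit3, chr9:37401722-37402021 (plus strand) for Robo4 and chr6:115994956-115995255 (minus strand) for Plxnd1, printed 5′ to 3′ on the gene's strand. Capitals mark AGGAAG, a string that ETS-family factors can bind, searched on both strands.
Slit2: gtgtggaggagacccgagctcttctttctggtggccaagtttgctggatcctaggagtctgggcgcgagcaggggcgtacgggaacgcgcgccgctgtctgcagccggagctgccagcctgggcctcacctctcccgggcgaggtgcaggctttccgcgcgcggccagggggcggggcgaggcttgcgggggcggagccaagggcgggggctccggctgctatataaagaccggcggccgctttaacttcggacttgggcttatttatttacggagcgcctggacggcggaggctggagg
Slit3: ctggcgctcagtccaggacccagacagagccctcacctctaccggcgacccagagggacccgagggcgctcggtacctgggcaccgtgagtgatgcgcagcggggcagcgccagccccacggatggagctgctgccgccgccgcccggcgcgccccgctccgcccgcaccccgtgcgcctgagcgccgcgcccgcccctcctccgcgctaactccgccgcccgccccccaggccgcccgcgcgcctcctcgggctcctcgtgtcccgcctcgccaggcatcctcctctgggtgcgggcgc
Robo4: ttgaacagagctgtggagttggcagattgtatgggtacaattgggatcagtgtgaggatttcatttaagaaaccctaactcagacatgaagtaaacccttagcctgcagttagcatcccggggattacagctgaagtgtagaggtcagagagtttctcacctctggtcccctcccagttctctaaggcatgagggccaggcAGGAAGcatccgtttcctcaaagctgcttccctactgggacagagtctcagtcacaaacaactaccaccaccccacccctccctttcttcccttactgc
Plxnd1: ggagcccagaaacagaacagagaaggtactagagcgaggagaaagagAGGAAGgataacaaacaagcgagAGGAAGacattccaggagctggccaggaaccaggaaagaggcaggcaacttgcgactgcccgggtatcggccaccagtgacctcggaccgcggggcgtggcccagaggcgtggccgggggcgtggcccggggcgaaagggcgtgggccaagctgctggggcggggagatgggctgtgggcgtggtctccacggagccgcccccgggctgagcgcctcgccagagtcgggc

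AGGAAG stood in the windows of Robo4 (1 match) and Plxnd1 (2 matches) and not in those of Slit2 and Slit3. Among the genes called in tumor-free mice, it was found at a listed start of 2 of 7 osteoblast-high genes (Robo2 and Sema5a). It was also found at 4 of the 5 endothelial-high genes searched (Efna1, Plxnd1, Robo4 and Sema6b). By window the counts were 2 of 9 for osteoblast-high and 4 of 8 for endothelial-high genes. Of all 32851 windows of this length, 35.4% hold AGGAAG. Of the 7 endothelial-high genes called, Sema6a and Plxna4 were not searched. Windows of 1 chromosome were left out for the called genes but not for all windows, so these shares cover unlike sets. Genes with several listed starts had more windows in which to match. CCGGAA, a stricter ETS-type string, stood at 2 of 7 osteoblast-high genes (Plxnb1 and Sema3d) and 0 of 5 endothelial-high genes. By window these were 2 of 9 and 0 of 8, against 14.9% of all windows. TGTGGT, a Runx-type string, was in none of the windows of these 12 genes, against 16.8% of all windows. AGGAAG and CCGGAA share the letters GGAA, and the 3 strings were chosen after the expression values were seen. A match or its lack describes letters in this window only.

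Semaphorins divided between the cell types gene by gene. Of 15 on the list, 12 were tested. In tumor-bearing mice 2 were higher in osteoblasts (Sema5a and Sema3d) and 4 lower (Sema6a, Sema6b, Sema3f and Sema6d). In tumor-free mice 3 were higher (Sema5a, Sema3d and Sema7a) and 3 lower (Sema6a, Sema6b and Sema4c).

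Sema5a, a transmembrane semaphorin with thrombospondin repeats, had log2 values of 8.29, 8.47 and 8.22 in the tumor-bearing and 8.71, 8.63 and 7.83 in the tumor-free osteoblast arrays, against 6.05, 5.35 and 5.87 in the tumor-bearing and 5.50, 5.28 and 5.21 in the tumor-free endothelial arrays. The cell types did not overlap, with fitted log2 fold changes of 2.57 in tumor-bearing mice and 3.06 in tumor-free mice (limma adjusted p = 6.07e-05 and 1.44e-05). All 3 tumor-free and 1 of 3 tumor-bearing endothelial values of Sema5a were below the 40th percentile, and with that percentile as the floor the difference in tumor-free mice was at least 2.81. Sema3d, a secreted semaphorin, had log2 values of 8.20, 8.70 and 6.12 in the tumor-bearing and 8.11, 7.19 and 5.71 in the tumor-free osteoblast arrays, against 4.18, 4.28 and 5.02 in the tumor-bearing and 4.25, 4.48 and 4.61 in the tumor-free endothelial arrays. All 6 endothelial values were below the 40th percentile, so Sema3d was tested through its osteoblast arrays alone. With that percentile as the floor, the osteoblast mean was higher by at least 2.14 in tumor-bearing mice and 1.42 in tumor-free mice, and the fitted log2 fold changes, on the dim values, were 3.18 and 2.56. The osteoblast values spread over more than 2 log2 units within each group, with replicate 3 lowest in both. Chondrocyte markers had medians of 9.02, 9.58 and 7.71 in the tumor-bearing and 8.17, 9.70 and 7.98 in the tumor-free osteoblast arrays, also lowest in replicate 3 of each group, and their part in the Sema3d values was not tested. In tumor-bearing mice Sema3d lost its call without osteoblast replicate 1 or 2 of that state (limma adjusted p = 0.0524 and 0.0502), and in tumor-free mice without osteoblast replicate 1 or 2 or any one endothelial array of that state (between 0.0801 and 0.111).

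Sema7a, a membrane-anchored semaphorin that binds plexin C1 and integrin beta 1, had log2 values of 9.12, 9.17 and 9.45 in the tumor-bearing and 9.67, 8.92 and 9.33 in the tumor-free osteoblast arrays, against 7.65, 8.94 and 8.94 in the tumor-bearing and 7.65, 7.70 and 7.91 in the tumor-free endothelial arrays. In tumor-bearing mice its log2 fold change was 0.73 and did not pass (limma adjusted p = 0.199). There 2 of 3 endothelial arrays stood near 8.94, and the lowest was replicate 1 at 7.65, without which the log2 fold change was 0.30 (adjusted p = 0.446). It was higher in osteoblasts of tumor-free mice by 1.56 (adjusted p = 0.00859).

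Sema6a, a transmembrane semaphorin that binds class A plexins, was the endothelial gene with the largest difference on the list, with log2 values of 6.75, 6.69 and 6.51 in the tumor-bearing and 6.82, 6.46 and 6.60 in the tumor-free osteoblast arrays, against 9.32, 9.51 and 9.54 in the tumor-bearing and 9.32, 9.41 and 9.70 in the tumor-free endothelial arrays. Osteoblasts were lower, with a log2 fold change of -2.81 in tumor-bearing mice and -2.85 in tumor-free mice, a 7.21-fold difference in tumor-free mice (limma adjusted p = 3.96e-07 and 3.05e-07). Sema6b, which binds plexin A4, had log2 values of 6.54, 6.36 and 6.68 in the tumor-bearing and 6.81, 6.30 and 6.88 in the tumor-free osteoblast arrays, against 8.04, 7.77 and 7.65 in the tumor-bearing and 7.87, 7.81 and 8.26 in the tumor-free endothelial arrays. Its log2 fold changes of osteoblasts over endothelial cells were -1.30 and -1.32. Both genes were separated between the cell types in every array.

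Sema4c, a ligand of plexin B2, had log2 values of 6.83, 7.03 and 7.09 in the tumor-bearing and 6.72, 6.85 and 7.03 in the tumor-free osteoblast arrays, against 7.34, 7.46 and 7.35 in the tumor-bearing and 7.48, 7.24 and 7.31 in the tumor-free endothelial arrays. The groups lay apart by a small step, with log2 fold changes of -0.40 in tumor-bearing mice (limma adjusted p = 0.0539, not called) and -0.48 in tumor-free mice (adjusted p = 0.0224). The call in tumor-free mice was lost without osteoblast replicate 1 or 2 or endothelial replicate 1 or 3 of that state (adjusted p between 0.0553 and 0.0942) and in a fit of the 2 groups alone (0.0751). Sema3f, a secreted ligand of neuropilin 2, was lower in osteoblasts of tumor-bearing mice, with a log2 fold change of -0.95 (adjusted p = 0.00192), and had -0.50 in tumor-free mice (adjusted p = 0.0526). Sema6d, which binds plexin A1, was lower in osteoblasts of tumor-bearing mice, with a log2 fold change of -0.80 (adjusted p = 0.0359), and had -0.61 in tumor-free mice (adjusted p = 0.0955). The Sema6d call was lost in 9 of 22 alternatives, among them the fits without any one tumor-bearing array (adjusted p between 0.0579 and 0.107) and without endothelial tumor-free replicate 1 or 3 (0.0550 and 0.0516). Sema3f passed in tumor-free mice too in 6 of 22 alternatives. Some left out osteoblast tumor-free replicate 3 (0.0482), endothelial tumor-bearing replicate 3 (0.0305) or endothelial tumor-free replicate 2 (0.0352). The rest were median centring (0.0471), weighted arrays (0.0368) and the replicate number as a block (0.0432). Sema4c passed in tumor-bearing mice without osteoblast tumor-free replicate 3 (0.0460) and with weighted arrays (0.0292).

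Sema4d, the plexin B1 ligand by which osteoclasts restrain osteoblasts in mice, depended on the probe set. The brighter set had log2 values of 6.58, 6.65 and 6.66 in the tumor-bearing and 6.72, 6.55 and 6.86 in the tumor-free osteoblast arrays, against 7.01, 7.05 and 6.87 in the tumor-bearing and 7.02, 6.96 and 6.92 in the tumor-free endothelial arrays, with a log2 fold change of -0.26 in tumor-free mice that did not pass (limma adjusted p = 0.159). A second set, outside the test, had 6.54, 6.79 and 6.93 in the tumor-bearing and 7.03, 6.59 and 7.10 in the tumor-free osteoblast arrays, against 6.09, 6.14 and 6.12 in the tumor-bearing and 6.16, 6.10 and 6.41 in the tumor-free endothelial arrays. The cell types did not overlap in either set, and the 2 sets ran in opposite directions. Sema3b, Sema4b and Sema5b had log2 fold changes between -0.12 and 0.19 and did not pass in either state.

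Among 7 plexins, the semaphorin receptors, endothelial cells carried the larger values of 3. Plxnd1, a plexin of vessels, had log2 values of 6.78, 7.62 and 6.64 in the tumor-bearing and 7.55, 6.94 and 7.49 in the tumor-free osteoblast arrays, against 9.05, 8.98 and 8.91 in the tumor-bearing and 8.98, 9.09 and 9.05 in the tumor-free endothelial arrays. Osteoblasts were lower, with log2 fold changes of -1.96 in tumor-bearing mice and -1.71 in tumor-free mice (limma adjusted p = 3.88e-04 and 8.64e-04), and the endothelial arrays lay between 8.91 and 9.09. Plxna4, a receptor of the Sema6 ligands and of Sema3a, had log2 values of 6.66, 6.61 and 6.94 in the tumor-bearing and 6.41, 6.80 and 6.44 in the tumor-free osteoblast arrays, against 8.28, 7.50 and 7.53 in the tumor-bearing and 7.94, 7.95 and 7.72 in the tumor-free endothelial arrays. Its log2 fold changes were -1.03 and -1.32, with the cell types apart in all arrays.

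Plxnc1, the Sema7a receptor, had log2 values of 4.87, 4.85 and 4.92 in the tumor-bearing and 5.50, 5.32 and 5.27 in the tumor-free osteoblast arrays, against 6.23, 6.70 and 5.47 in the tumor-bearing and 6.11, 6.57 and 5.78 in the tumor-free endothelial arrays. All 6 osteoblast values were below the array's 40th percentile, so the log2 fold changes of -1.25 in tumor-bearing (limma adjusted p = 0.0158) and -0.79 in tumor-free mice (adjusted p = 0.101, not called) rest on dim values. With that percentile as the floor, the endothelial mean was higher by at least 0.61 in tumor-bearing mice and 0.60 in tumor-free mice. The call in tumor-bearing mice was lost in 3 of 21 alternatives (adjusted p between 0.0504 and 0.0563), among them the fit without endothelial tumor-bearing replicate 1 (0.0549). Plxnb1, the Sema4d receptor of osteoblasts, was the single plexin higher in osteoblasts, with log2 values of 7.14, 7.09 and 6.82 in the tumor-bearing and 7.22, 7.33 and 7.08 in the tumor-free osteoblast arrays, against 6.56, 6.44 and 6.62 in the tumor-bearing and 6.47, 6.42 and 6.72 in the tumor-free endothelial arrays. Its log2 fold changes were 0.48 in tumor-bearing mice and 0.67 in tumor-free mice (adjusted p = 0.0372 and 0.00547). The call in tumor-bearing mice was lost without osteoblast tumor-bearing replicate 1 or 2, any one endothelial tumor-bearing array or endothelial tumor-free replicate 1 (adjusted p between 0.0561 and 0.126), in the fit of only these groups (0.0829) and with the replicate number as a block (0.0712). Plxnc1 passed in tumor-free mice without endothelial tumor-bearing replicate 3 (0.0292). Plxna1 and Plxna2, receptors of secreted semaphorins with neuropilins, and Plxnb2, the Sema4c receptor, did not pass in either state, with log2 fold changes from -0.16 to 0.43.

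**Figure D2:**
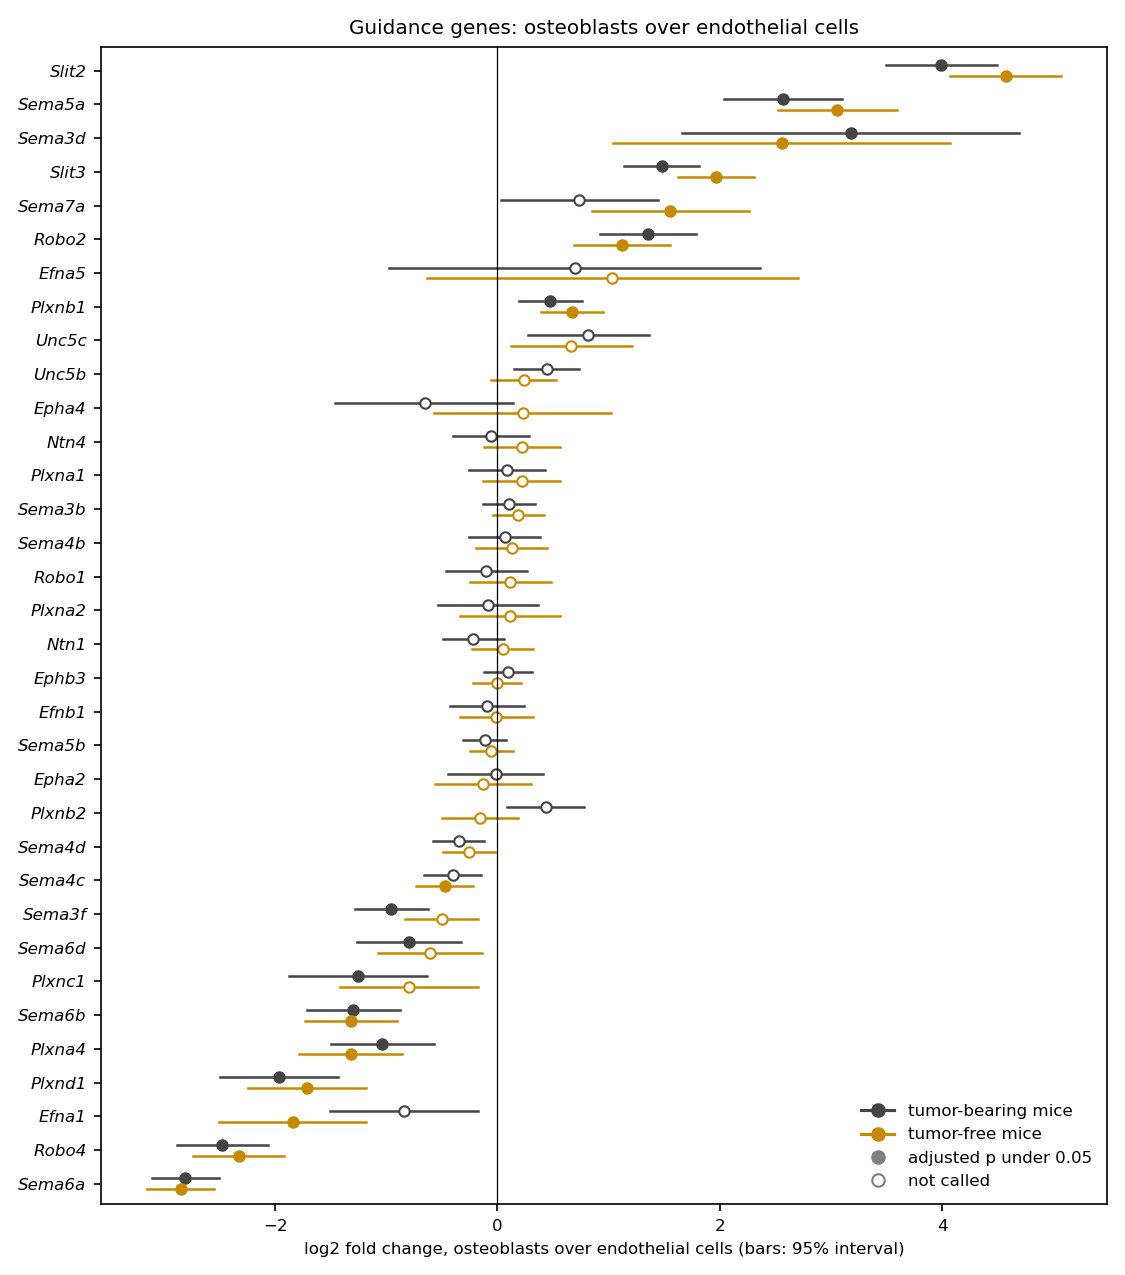
Log2 fold change of osteoblasts over endothelial cells (x axis) with its 95% interval for the 34 tested guidance genes (rows), in tumor-bearing (grey) and tumor-free mice (ochre). Filled points have a limma adjusted p under 0.05; Slit2 is farthest right at 3.99 and 4.57, and Sema6a farthest left at -2.81 and -2.85.

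Ephrins and Eph receptors gave 0 calls among 6 tested genes in tumor-bearing mice and 1 in tumor-free mice by limma. Of all genes, 10.6% and 12.4% were called, so with so few genes these counts do not set the families apart. Efna1, a membrane-anchored ligand of Epha2 that inflammatory signals induce in endothelium, had log2 values of 6.52, 6.29 and 7.58 in the tumor-bearing and 5.86, 6.00 and 5.60 in the tumor-free osteoblast arrays, against 7.96, 7.63 and 7.31 in the tumor-bearing and 7.73, 7.79 and 7.47 in the tumor-free endothelial arrays. In tumor-bearing mice its log2 fold change of -0.84 did not pass (limma adjusted p = 0.113), with osteoblast replicate 3 (7.58) inside the endothelial range. Without that array it was -1.23 and passed (adjusted p = 0.00401). It also passed with weighted arrays (0.0307) and without replicate 3 of both osteoblast groups (0.00446). Efna1 was lower in osteoblasts of tumor-free mice, with a log2 fold change of -1.84 (adjusted p = 0.00218).

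Efna5, an ephrin with roles in neural mapping, had the widest intervals of the 34 genes. It had log2 values of 8.88, 7.19 and 5.83 in the tumor-bearing and 8.85, 7.21 and 6.11 in the tumor-free osteoblast arrays, against 6.57, 6.54 and 6.70 in the tumor-bearing and 6.25, 6.75 and 6.05 in the tumor-free endothelial arrays. The osteoblast arrays differed from each other by more than 2 log2 units in both groups, with replicate 1 highest and replicate 3 lowest, and the gene did not pass (0.69 and 1.03 in tumor-bearing and tumor-free mice, adjusted p = 0.667 and 0.478). Chondrocyte markers, given with Sema3d, were also lowest in replicate 3 of both groups, and highest in replicate 2, and their part in the Efna5 values was not tested. Efnb1, a transmembrane ephrin of skeletal patterning, had group means between 7.78 and 7.88, with a 95% interval of the log2 fold change of -0.43 to 0.23 in tumor-bearing and -0.34 to 0.32 in tumor-free mice. The receptors Epha2, Epha4 and Ephb3 did not pass in either state, with log2 fold changes between -0.66 and 0.23. Epha4 varied most among them, up to 7.34 in tumor-free osteoblast replicate 2 and 7.40 in tumor-bearing endothelial replicate 2.

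Netrins and their Unc5 receptors gave 0 calls by limma among 4 tested genes in either state. Unc5b, a netrin receptor of vessels and macrophages, had log2 values of 6.50, 6.62 and 6.77 in the tumor-bearing and 6.44, 6.45 and 6.31 in the tumor-free osteoblast arrays, against 6.16, 5.96 and 6.44 in the tumor-bearing and 6.25, 6.13 and 6.12 in the tumor-free endothelial arrays. The cell types did not overlap in either state, but the log2 fold changes of 0.44 and 0.23 did not pass (limma adjusted p = 0.0605 and 0.329, unadjusted p = 0.00699 and 0.103). Unc5c, a neuronal netrin receptor, had log2 fold changes of 0.82 and 0.67, without overlap of the groups in either state (adjusted p = 0.0623 and 0.120, unadjusted p = 0.00731 and 0.0213). Ntn1, the best known netrin, and Ntn4, a laminin-binding netrin, had log2 fold changes between -0.22 and 0.22.

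Genes called in a single state were not shown to differ between the states. Sema3f, Sema6d and Plxnc1 passed in tumor-bearing mice but not in tumor-free mice, and Sema4c, Sema7a and Efna1 the other way round. The test of the difference itself, the tumor effect in osteoblasts minus that in endothelial cells, gave values from -0.82 for Sema7a to 1.00 for Efna1 and limma adjusted p from 0.759 to 0.970.

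In osteoblasts, none of the 34 genes passed between tumor-bearing and tumor-free mice by limma, where 0.0563% of all genes did (8 of 14217). At an unadjusted p under 0.05 there were 2 (5.88%), Efna1 and Plxnb2, both higher, where 9.78% of all genes were, and 5.80% were higher. The arrays of tumor-bearing and tumor-free mice did not overlap in 4 genes (11.8%), 3 higher and 1 lower, where 14.5% of all genes did not, 6.18% higher and 8.36% lower. Both shares in either direction were below the shares of all genes, while the higher shares were not, with 2 and 3 genes behind them. The median log2 fold change was -0.06, against -0.02 for all genes.

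Efna1 had the highest t value, with 6.52, 6.29 and 7.58 in tumor-bearing and 5.86, 6.00 and 5.60 in tumor-free osteoblast arrays. The groups did not overlap, and replicate 3 of the tumor-bearing mice stood highest. The log2 fold change was 0.97 ± 0.30 (SE, 95% interval 0.31 to 1.64, limma adjusted p = 0.339), and 0.58 without that replicate. Pan-haematopoietic markers had medians of 5.77, 5.67 and 6.29 in the tumor-bearing and 5.85, 5.56 and 6.62 in the tumor-free osteoblast arrays, highest in replicate 3 of both groups. Efna1 was lowest in replicate 3 of the tumor-free group (5.60). In tumor-bearing replicate 3, Ptprc, Laptm5, Cd52 and Vav1 were highest of that group, but Coro1a and Rac2 were lowest. The part of such cells in the Efna1 values was not tested.

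Plxnb2 had 7.16, 6.89 and 7.13 in tumor-bearing against 6.81, 6.78 and 6.36 in tumor-free osteoblast arrays, without overlap (log2 fold change 0.41, limma adjusted p = 0.429). Unc5b had 6.50, 6.62 and 6.77 against 6.44, 6.45 and 6.31 in the same order, also without overlap (0.23, adjusted p = 0.623). Robo2, with 7.62, 7.14 and 7.47 against 6.87, 7.46 and 6.76, overlapped (0.38, adjusted p = 0.587). The lowest t values belonged to Plxnc1 (-0.48, non-overlapping, and dim in both groups), Sema6d (-0.34), Plxnb1 (-0.19) and Plxnd1 (-0.31), with adjusted p between 0.619 and 0.705. Single arrays moved several of these values. Leaving out 1 osteoblast array gave -0.63 to -0.19 for Sema6d and -0.62 to -0.13 for Plxnd1, -0.10 for Plxnb1 without tumor-bearing replicate 3, 0.27 for Plxnb2 without tumor-free replicate 3, and 0.59 and 0.24 for Robo2 without tumor-free replicate 2 or 3. Slit2 and Slit3, the osteoblast-high ligands, had log2 fold changes of -0.09 and -0.05 there.

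In endothelial cells, none of the 34 genes passed between tumor-bearing and tumor-free mice by limma either, where 0.0141% of all genes did (2 of 14217). At an unadjusted p under 0.05 there were 2 (5.88%), Slit3 and Sema7a, both higher, where 4.59% of all genes were and 2.62% were higher. The groups did not overlap in 4 genes (11.8%), Slit3, Sema3f, Robo1 and Unc5c, all higher in tumor-bearing mice, where 10.5% of all genes did not and 5.63% were higher without overlap. The shares in either direction were near those of all genes, while the higher shares were above them, with 4 and 2 genes behind them. The median log2 fold change was 0.04, against 0.01 for all genes.

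Slit3 had 7.15, 6.83 and 6.85 in tumor-bearing against 6.57, 6.50 and 6.44 in tumor-free endothelial arrays, a log2 fold change of 0.44 ± 0.15 (SE, 95% interval 0.10 to 0.78, limma adjusted p = 0.934). Every tumor-bearing array lay above every tumor-free one. Slit2 had 5.40, 4.73 and 5.16 against 4.59, 4.39 and 4.85, all dim and overlapping (0.49, adjusted p = 0.9999). Sema5a, another osteoblast-high gene, had 6.05, 5.35 and 5.87 against 5.50, 5.28 and 5.21 (0.43, adjusted p = 0.9999). Stromal niche markers (6 of 6 measured, among them Lepr, Cxcl12 and Adipoq) had medians of 9.27, 8.78 and 8.34 in the tumor-bearing and 7.69, 7.32 and 7.38 in the tumor-free endothelial arrays, and osteoblast lineage markers (7 of 8 measured) had 6.47, 6.38 and 6.11 against 5.54, 5.56 and 6.03. Pericyte and smooth muscle markers (5 of 5 measured) had medians between 6.80 and 7.04 in the tumor-bearing and between 6.06 and 6.22 in the tumor-free endothelial arrays. None of these 3 sets of medians overlapped between the groups. All niche markers had positive log2 fold changes, from 0.44 to 1.87, but the other 2 lists were uneven. Mmp13 (2.18), Ibsp (1.29) and Postn (0.54) were higher with tumor, while Sp7, Alpl, Col1a1 and Dmp1 lay between -0.12 and 0.06. Rgs5 (1.37) and Acta2 (1.12) were higher, while Myh11, Cspg4 and Des lay between -0.04 and 0.03. The part of such cells in the Slit3, Slit2, Sema5a and Sema7a values was not tested.

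Sema7a had 7.65, 8.94 and 8.94 in tumor-bearing against 7.65, 7.70 and 7.91 in tumor-free endothelial arrays, with 2 of 3 tumor-bearing arrays above and replicate 1 among the tumor-free ones (0.76, adjusted p = 0.9999). Without replicate 1 of the tumor-bearing mice, the array with the highest niche marker median, the log2 fold change was 1.19 (adjusted p = 0.176). Sema3f had 7.68, 7.75 and 8.13 against 7.61, 7.30 and 7.67 (0.32). The lowest t values were those of Plxnb2 (-0.18), Epha2 (-0.21), Sema6b (-0.15) and Sema6d (-0.15), all with adjusted p of 0.9999. Without single endothelial arrays these 4 and Sema3f moved by over 1.5 times, over ranges of -0.32 to -0.10 for Plxnb2, -0.41 to -0.09 for Epha2, -0.27 to -0.01 for Sema6b, -0.24 to -0.07 for Sema6d and 0.18 to 0.41 for Sema3f. The endothelial genes Sema6a, Robo4, Plxnd1 and Plxna4 had -0.02, 0.05, -0.06 and -0.10.

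**Figure D3:**
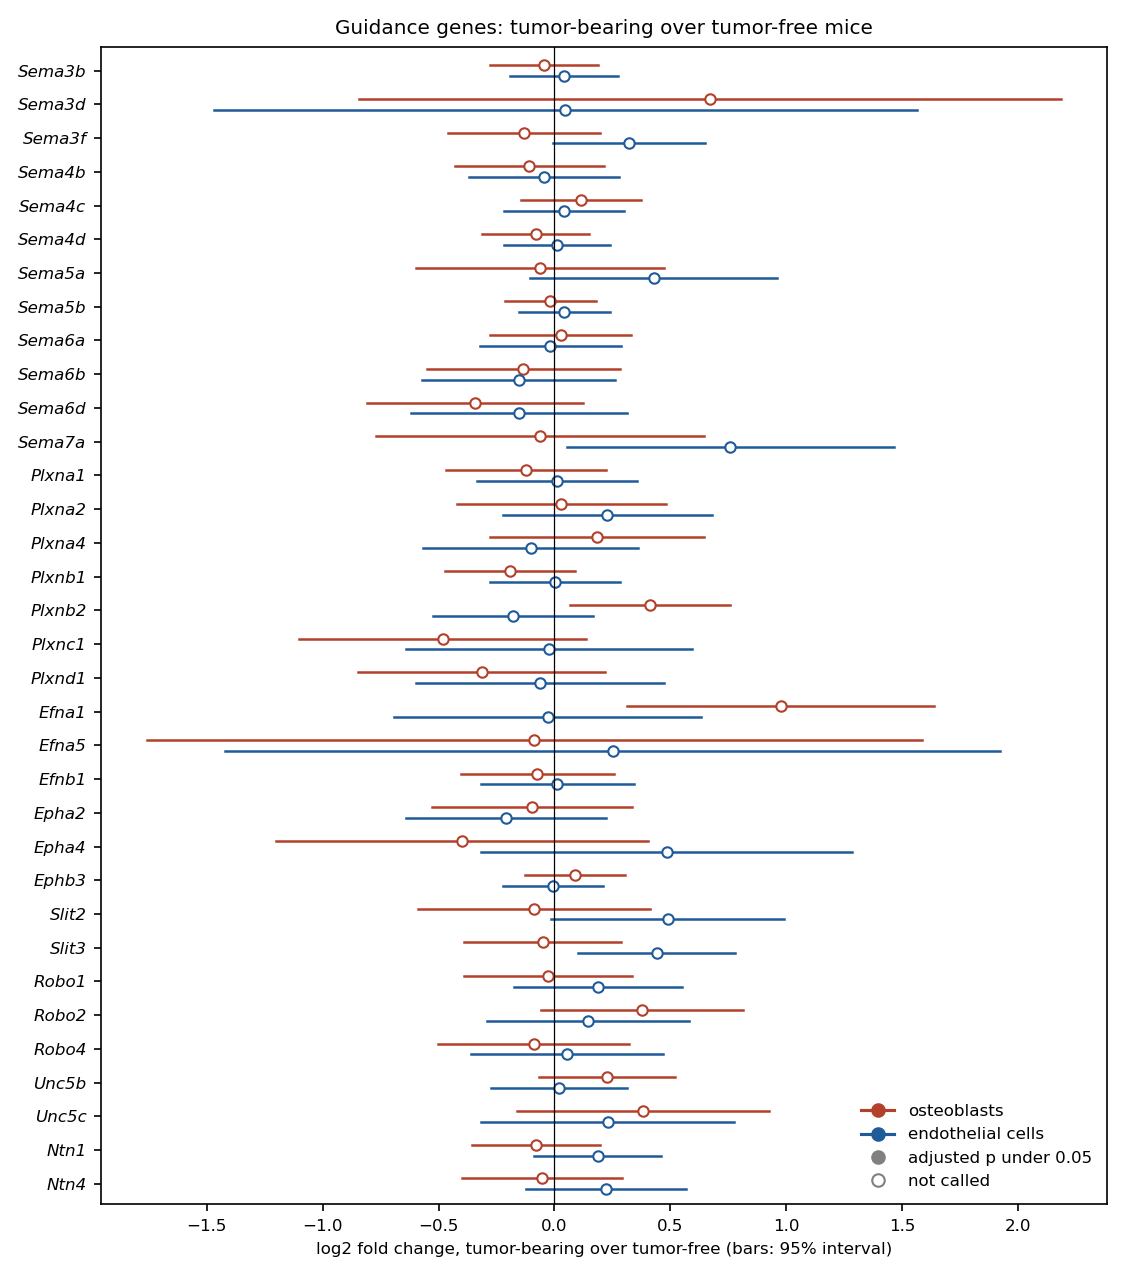
Log2 fold change of tumor-bearing over tumor-free mice (x axis) with its 95% interval for the 34 tested guidance genes (rows), in osteoblasts (red) and endothelial cells (blue). Points are open because none had a limma adjusted p under 0.05; the highest is Efna1 in osteoblasts at 0.97.

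The intervals show what 3 arrays per group could resolve. The 95% interval of the tumor effect reached a median of 0.39 log2 units to either side, and it lay inside a 2-fold change in either direction (a log2 value of 1) for 29 of 34 genes in osteoblasts and 30 of 34 in endothelial cells. It reached beyond for Sema3d, Plxnc1, Efna1, Efna5 and Epha4 in osteoblasts and for Sema3d, Sema7a, Efna5 and Epha4 in endothelial cells. These are single-gene intervals, not adjusted for the number of genes.

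The tumor effects of the 2 cell types were also compared directly, and 0 of the 34 genes passed by limma, where 0.0281% of all genes did (4 of 14217). At an unadjusted p under 0.05 there were 3 (8.82%), where 6.47% of all genes were. Plxnb2 and Efna1 had the highest t values of the difference, osteoblasts minus endothelial cells, with differences of 0.59 and 1.00 (limma adjusted p = 0.699 and 0.759). Slit3 and Sema3f had the lowest t values, with differences of -0.49 and -0.45 (adjusted p = 0.766 and 0.775). By size alone Epha4 (-0.88), Sema7a (-0.82) and Slit2 (-0.58) were lower, and Sema3d (0.62) was above Plxnb2. The Efna1 difference was 0.61 without osteoblast tumor-bearing replicate 3.

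**Figure D4:**
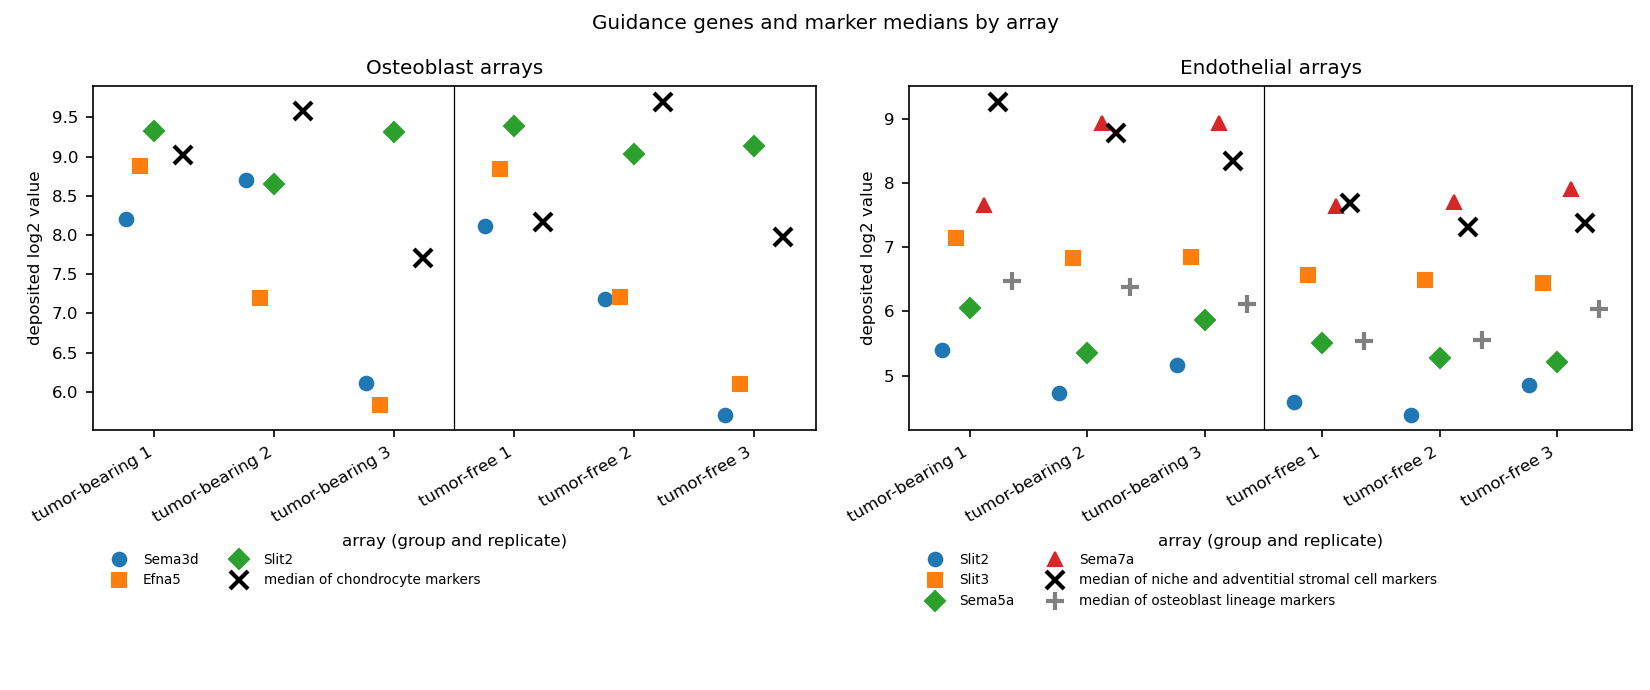
Deposited log2 value (y axis) by array (x axis). Left, Sema3d, Efna5 and Slit2 with the median of the chondrocyte markers (crosses) in the osteoblast arrays; right, Slit2, Slit3, Sema5a and Sema7a with the medians of the niche (crosses) and osteoblast lineage markers (plus signs) in the endothelial arrays. Values compare across arrays, not between genes: Sema3d is lowest in replicate 3 of both osteoblast groups, at 6.12 and 5.71, and the niche median is between 8.34 and 9.27 in tumor-bearing and between 7.32 and 7.69 in tumor-free endothelial arrays.

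Further genes of the same families, 35 in all, were counted beside the list. Of these, 29 were tested. In tumor-bearing mice 5 differed by cell type, 2 higher and 3 lower in osteoblasts (17.2%, where 10.6% of all genes did), and in tumor-free mice 7 did, 2 higher and 5 lower (24.1%, where 12.4% did). Neo1, which encodes the netrin and RGM receptor neogenin, was higher in osteoblasts, with log2 values of 10.37, 9.76 and 9.59 in the tumor-bearing and 9.80, 9.91 and 10.00 in the tumor-free osteoblast arrays, against 6.19, 6.66 and 7.48 in the tumor-bearing and 6.77, 6.52 and 6.30 in the tumor-free endothelial arrays. Its log2 fold changes were 3.13 and 3.37 in tumor-bearing and tumor-free mice, and the cell types did not overlap. Flrt2, which encodes an adhesion protein that binds Unc5 receptors, was also higher in osteoblasts (1.75 in tumor-bearing mice and 1.24 in tumor-free mice).

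Sema3a, a secreted semaphorin known to favour bone formation in mice, had log2 values of 7.42, 6.96 and 8.0 in the tumor-bearing and 7.19, 6.52 and 6.97 in the tumor-free osteoblast arrays, against 9.91, 10.53 and 10.24 in the tumor-bearing and 10.31, 10.22 and 10.23 in the tumor-free endothelial arrays. It was thus lower in the sorted osteoblasts, with log2 fold changes of -2.77 and -3.36 (limma adjusted p = 6.21e-05 and 1.29e-05). Its co-receptor gene Nrp1 was also lower in osteoblasts (log2 fold changes -1.53 and -1.28), while Nrp2, the Sema3f co-receptor gene, had 0.27 and 0.36 and did not pass. Ephb4, the venous receptor of ephrin B2, was lower in osteoblasts (-1.33 and -1.46). Its ligand gene Efnb2 did not pass in tumor-bearing mice (-1.32, adjusted p = 0.0786) and was lower in osteoblasts of tumor-free mice (-2.31, adjusted p = 0.00455).

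Between tumor-bearing and tumor-free mice, 0 of these 29 genes passed by limma in osteoblasts, with 2 at an unadjusted p under 0.05 (6.90%, where 9.78% of all genes were), and 0 passed in endothelial cells, with 1 unadjusted (3.45%, where 4.59% were). In osteoblasts these were Flrt3 and Efnb2, and in endothelial cells Flrt3 again; both are named after their values were seen. Flrt3, of the same adhesion protein family as Flrt2, had 6.36, 6.36 and 6.43 in tumor-bearing against 5.52, 6.21 and 5.71 in tumor-free osteoblast arrays, without overlap (0.57, unadjusted p = 0.00413, adjusted p = 0.286). In endothelial cells it had 6.88, 6.68 and 6.75 in tumor-bearing against 7.17, 7.29 and 7.13 in tumor-free arrays, also without overlap (-0.43, unadjusted p = 0.0198, adjusted p = 0.965). The difference of both effects was 1.00 (unadjusted p = 0.000988, adjusted p = 0.366). Efnb2 had 8.30, 7.38 and 6.76 in tumor-bearing against 5.86, 7.22 and 6.26 in tumor-free osteoblast arrays, with overlap (1.03, unadjusted p = 0.0341, adjusted p = 0.474).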

How the data were processed

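RNA of both sorted cell types, with and without tumor in the mice, was measured on 12 Affymetrix arrays. Per the labels, RNA was turned into cDNA and amplified isothermally with a single primer before biotin labelling; amplification from 5000 cells can distort transcript proportions. The authors processed the arrays with affy, per the submitters' processing notes; its version, summary method and normalization are unstated in the sources used here. The deposited table holds log2 values (array medians from 5.95 to 6.04), which were used as they stand and which understate fold changes of dim genes.

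The table held 34760 probe sets, of which the platform annotation gave 1 symbol to 21640, several to 1321 and none to 11799. Symbols were updated by Entrez number through a RefSeq table of GRCm38.p6 (21553 matched). The brightest probe set stood for a gene, and 14217 of 19937 genes passed the 40th percentile filter. Groups came from the sample titles. The 12 arrays were fitted together in limma 3.58.1 (R 4.3.3), 1 coefficient for each group, with eBayes defaults; jsonlite 2.0.0 read the gene list. P-values are two-sided and adjusted by Benjamini-Hochberg over the 14217 genes, with a threshold of 0.05; intervals are limma's at 95%. Lower bounds against the 40th percentile were added after the data were seen. P-values and intervals rest on the spread between these arrays, and the number of arrays limits the precision. The labels name no batch. The steps were tested on simulated data.

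Values by array are given for genes that differed by cell type in the tumor-free state (up to 8 per direction), for the 4 highest and 4 lowest t values of each tumor comparison and the 2 highest and 2 lowest of their difference, and for other genes where a spread is described, chosen after their values were seen (Sema4d, Efna5). The members, lists and rules were chosen with earlier results of these data known. As alternatives, values were quantile-normalized or centred on the median, the filter was dropped or raised to the 60th percentile, probe sets of a gene were averaged, eBayes was run robustly with a trend, arrays were weighted, groups were fitted pairwise, replicate number was a block, and each array in turn, or replicate 3 of both osteoblast groups, was left out.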

Additional observations from a re-analysis of the deposited data

How the results depend on the processing

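In each of the 22 alternatives (21 for the difference of tumor effects), 0 of the genes on the list passed between tumor-bearing and tumor-free mice in osteoblasts, in endothelial cells and in the difference of both. Between the cell types, the 14 calls in tumor-bearing mice became 11 to 19, of which 11 to 14 were among the 14, and the 14 calls in tumor-free mice became 12 to 16, of which 12 to 14 were among the 14. The 19 came from array weights, the 11 from the fit of only the groups compared and from the fits without osteoblast tumor-bearing replicates 1 or 2 or endothelial tumor-bearing replicate 1. Leaving out 1 array gave 11 to 16 calls in tumor-bearing and 12 to 16 in tumor-free mice. Of 28 called values between the cell types, 21 passed in every alternative, and the others were Sema3d, Sema6d, Plxna4, Plxnb1 and Plxnc1 in tumor-bearing mice and Sema3d and Sema4c in tumor-free mice. Of 1181 values of single genes under these alternatives, 0 changed sign. With the replicate number as a block, 13 and 15 genes were called in tumor-bearing and tumor-free mice and 0 in each tumor comparison. No pairing by number was seen over all tested genes. The correlation of same-numbered arrays' deviations from their group means lay between -0.08 and 0.07, with 0 of 18 pairs over 0.1. A correlation over all genes cannot exclude that same-numbered arrays shared mice, which the labels do not say. Dim values limit Slit2, Sema3d and Plxnc1, whose lower cell type lay below the 40th percentile on all of its arrays, and Sema5a, whose tumor-free endothelial values did.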

Other observations

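Genes that carry guidance signals inside the cell, listed with the surface proteins Cd72, Itgb1 and Adam10, also differed between the cell types. Of 39 listed, 36 were tested, and 8 differed in tumor-bearing mice (22.2%, where 10.6% of all genes did), 5 of them higher in osteoblasts and 3 lower. In tumor-free mice 11 did (30.6%, where 12.4% did), with 5 higher and 6 lower. Dpysl3, of the collapsin response mediators that act below Sema3a, had log2 values of 8.36, 8.32 and 8.0 in the tumor-bearing and 8.56, 9.08 and 8.91 in the tumor-free osteoblast arrays, against 6.22, 6.35 and 6.32 in the tumor-bearing and 6.67, 6.52 and 6.08 in the tumor-free endothelial arrays. It was higher in osteoblasts by 1.93 in tumor-bearing mice and 2.43 in tumor-free mice (limma adjusted p = 5.86e-05 and 9.25e-06). Rnd3 had group means of 10.64 in tumor-bearing and 10.38 in tumor-free osteoblasts, against 8.06 and 6.83 in endothelial cells. Its endothelial arrays read 8.02, 7.33 and 8.85 in tumor-bearing and 7.03, 6.42 and 7.02 in tumor-free mice. Vav3, an exchange factor for Rac, and the Src-family kinase gene Fyn were lower in osteoblasts, with log2 fold changes of -2.21 and -3.17 for Vav3 and -0.85 and -0.86 for Fyn in the tumor-bearing and tumor-free state.

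Between tumor-bearing and tumor-free mice, 0 of these 36 genes passed by limma in osteoblasts, with 3 at an unadjusted p under 0.05 (8.33%, where 9.78% of all genes were), and 0 passed in endothelial cells, with 2 unadjusted (5.56%, where 4.59% were).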
